A study of Rattus norvegicus with 86 samples.

Results

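*Hbb* (ENSRNOG00000058105), an adult beta globin gene, was followed across the prelimbic cortex (PL) of 80 rats. It was the 1 row, of 17250 genes in the deposited table, whose identifier the authors pair with the name *Hbb*. PL is a part of the medial prefrontal cortex. The animals were heterogeneous stock (HS) rats, an outbred population bred from several inbred strains, housed in groups and naive to behavioural tests and drugs. There were 40 males and 40 females with 1 library each, and they came in 5 rat batches of 14, 23, 26, 1 and 16 rats, labelled 2 to 6. The region was cut from frozen sections under a camera and polyadenylated RNA of the whole piece was sequenced, so that vessels, and any blood left in them, would have been included with neurons and glia. The labels give no age; the study's methods state a mean age for each sex, which is not repeated here. Neither says whether blood was washed out of the brains.

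Haemoglobin carries oxygen in red blood cells and is built from alpha and beta globin chains with haem. Circulating red cells of mammals have no nucleus, but the youngest of them, the reticulocytes, still hold globin mRNA, so blood left in the vessels of a bulk tissue sample can bring globin mRNA into it. Globin mRNA has also been described at low levels in some neurons and glia. In a bulk sample, fewer cells of a type and less RNA per cell cannot be told apart, and whether the level of *Hbb* measures blood was not tested here.

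*Hbb* is one of a cluster of close copies. In the RefSeq annotation, chromosome 1 holds 5 genes whose symbol starts with *Hbb*, in the order *Hbb-bs*, *Hbb-b1*, *Hbbl1*, *Hbb-b2* and *Hbb*. Of the others, only *Hbb-bs* (ENSRNOG00000047098) and LOC100134871 (ENSRNOG00000061299), which RefSeq lists as *Hbbl1*, could be found by name in the table. The authors' program divides reads that match several copies among them by an estimate, so the values of these 3 genes are uncertain in how reads were split, and their sum is given beside them. The 150 bases before the start site of each are shown because the results turn on *Hbb* and its copies varying differently. They are RefSeq sequences of build GRCr8, all on the minus strand, at chr1:167663722-167663871 for *Hbb*, chr1:167631631-167631780 for *Hbb-bs* and chr1:167650236-167650385 for LOC100134871. Capitals mark the CACCC motif, the CCAAT motif and the motif ATAAA, short motifs known from globin promoters, searched on both strands.
Hbb: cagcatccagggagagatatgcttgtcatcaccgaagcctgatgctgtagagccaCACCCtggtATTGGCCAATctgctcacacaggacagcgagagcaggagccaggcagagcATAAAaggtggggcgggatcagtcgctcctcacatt
Hbb-bs: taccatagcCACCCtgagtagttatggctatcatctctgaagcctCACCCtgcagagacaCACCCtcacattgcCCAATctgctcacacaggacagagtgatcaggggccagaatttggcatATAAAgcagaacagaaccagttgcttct
LOC100134871: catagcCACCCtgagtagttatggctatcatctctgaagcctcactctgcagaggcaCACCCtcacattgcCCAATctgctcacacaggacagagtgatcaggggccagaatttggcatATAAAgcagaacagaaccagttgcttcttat

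In an alignment of the 3 windows, *Hbb-bs* and LOC100134871 were identical at 94.8% of positions. *Hbb* was identical to *Hbb-bs* at 67.9% and to LOC100134871 at 68.8%. The *Hbb* window held CACCC 1 time, with its first base 95 bases before the start site, where *Hbb-bs* held it 3 times and LOC100134871 2 times. All 3 held CCAAT, first base 81, 76 and 79 bases before the start in the same order, and ATAAA, at 36, 28 and 31 bases. *Hbb* alone also had CCAAT on the opposite strand, beginning 86 bases before the start and directly next to the first. These motifs are common, as CACCC was in 35.2%, CCAAT in 23.5% and ATAAA in 25.7% of 33469 promoter windows of the same length. A match is only a description of the letters.

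Expression is given as the deposited log2(adjusted count + 1), the count being scaled to a common upper quartile in each library. The recovered depth, estimated from gaps between the rounded counts, was 10174405 to 32218170 reads per library, with a median of 18203760. Rat batch was a large source of variation in this table, with 59.4% of 17250 genes differing between batches (limma's moderated F-test, adjusted p under 0.05). Sex moved 0.365% of them, 63 genes.

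*Hbb* was present in every rat and its level was highly variable. The log2 value was 9.29 ± 0.76 (SD, n = 80), with a lowest of 6.58, a median of 9.29 and a highest of 10.87. The adjusted counts ran from 95 to 1869 around a median of 623, a 19.7-fold range. Of 2469 genes with a mean log2 value within 0.5 of that of *Hbb*, 99.4% had a smaller SD, and the median SD of these genes was 0.18. The lowest rat, female 8 of batch 3, stood 1.02 log2 units below the next, female 36 of batch 4 at 7.61. Male 25 of batch 4 followed at 7.82. The highest were male 16 of batch 4 at 10.87, female 6 of batch 3 at 10.82, female 3 of batch 4 at 10.71 and male 31 of batch 4 at 10.51. The extremes were thus in batches 3 and 4, and both sexes were at either end. Female 8 was not extreme in depth, with 17941277 recovered reads.

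Males and females did not separate in *Hbb*. The log2 value was 9.28 ± 0.74 in 40 males, from 7.82 to 10.87, and 9.29 ± 0.79 in 40 females, from 6.58 to 10.82. The difference of males minus females with rat batch in the model was -0.01 (standard error 0.17, adjusted p = 0.996 from limma over all genes, two-sided permutation p = 0.939 within batches). Within batches 2, 3 and 4 the difference was 0.02 each, and it was -0.15 in batch 6.

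Rat batches overlapped broadly in *Hbb*, as the plot by batch and sex shows. The mean was highest in batch 3, at 9.52 ± 0.85 (n = 23), followed by batch 2 at 9.37 ± 0.51 (n = 14) and batch 4 at 9.24 ± 0.90 (n = 26). It was lowest in batch 6, at 8.98 ± 0.44 (n = 16), and the single rat of batch 5 was at 9.04. The batches did not differ beyond the spread among rats (moderated F-test of limma, adjusted p = 0.311, permutation p = 0.262), and rat batch and sex together held 6.55% of the variance. No pair of neighbours in this order differed by permutation tests adjusted over 6 pairs. The lowest adjusted p was 0.0955, for batch 3 over batch 6 by 0.54 (SE 0.21) and batch 2 over batch 6 by 0.39 (SE 0.18). The SD was larger in batches 3 and 4 than in batches 2 and 6, a difference that was not tested. That of batch 3 includes female 8 at 6.58, and the next lowest rat of this batch was at 8.49. The lower and upper quartiles of batch 3, 9.34 and 10.02, were closer together than those of batch 2. Those of batch 4, 8.48 and 9.86, were farther apart than in batches 2, 3 and 6.

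**Figure D1:**
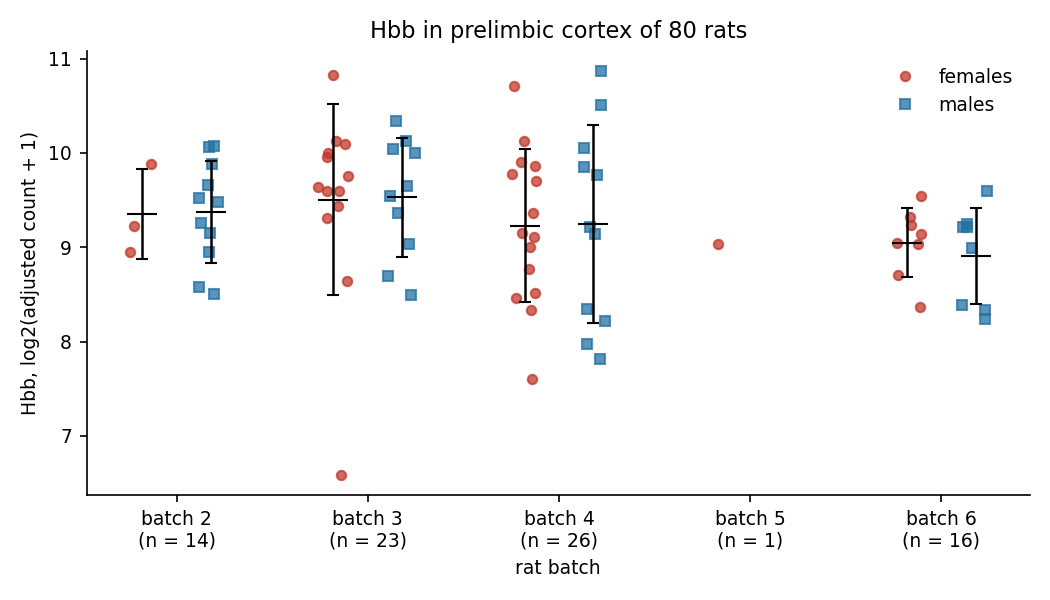
*Hbb* as log2(adjusted count + 1) on the y axis in each of 80 rats, by rat batch on the x axis and by sex (circles females, squares males), with the mean and SD in black for groups of at least 3 rats. Males and females overlap in every batch that has both, and 1 female of batch 3 lies alone at 6.58.

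The 2 genes most like *Hbb* across rats were unnamed in these data. Likeness was measured as Pearson's r of the log2 values after rat batch and sex were removed, over 80 rats, for each of 17249 other genes. ENSRNOG00000029886 (8.40 to 11.57, median 10.41) had an r of 0.751 and a Spearman's rho of 0.658. ENSRNOG00000047321 (7.02 to 10.09, median 9.04) had an r of 0.749 and a rho of 0.666. Their slopes were 0.53 (SE 0.05) and 0.56 (SE 0.06) log2 units for each log2 unit of *Hbb*, with an adjusted p of 1.37e-11 each from limma over all genes. The r of the first was between 0.528 and 0.830 within the 4 batches that have more than 1 rat, and that of the second between 0.446 and 0.866. These genes were close to each other, with an r of 0.959.

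The other beta globins followed *Hbb* less closely than they followed each other. *Hbb-bs* was at 7.54 ± 0.62 (5.73 to 8.74, median 7.52) and rose with *Hbb*, with a slope of 0.38 (SE 0.08, adjusted p = 0.0251, limma), an r of 0.470 (permutation p = 5e-05, adjusted p = 6.92e-05 over 18 relations) and a rho of 0.346 (permutation p = 0.0016, adjusted p = 0.00206). Without the 2 rats farthest from the median of *Hbb*, females 8 and 36, r was 0.288. Within batches it was 0.244, 0.681, 0.447 and 0.314 in batches 2, 3, 4 and 6.

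LOC100134871 was at 9.01 ± 0.68 (6.97 to 10.48, median 8.96), and its relation to *Hbb* did not pass the test. The slope was 0.19 (SE 0.09, adjusted p = 0.223, limma), r was 0.222 (permutation p = 0.0531, adjusted p = 0.0597) and rho 0.126 (permutation p = 0.262, adjusted p = 0.294). It rested on 2 rats, since r was -0.01 without them. Within batches r ranged from -0.23 in batch 4 to 0.623 in batch 3. By contrast, *Hbb-bs* and LOC100134871 had an r of 0.871, and 0.850 without the 2 rats farthest from the median of *Hbb-bs*. Within batches 2, 3, 4 and 6 it was 0.943, 0.966, 0.591 and 0.934. In batch 4, r with the summed unnamed pair was 0.147 for LOC100134871, 0.737 for *Hbb-bs* and 0.812 for *Hbb*. That pair was chosen for its likeness to *Hbb*.

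The ratio of *Hbb* to the other beta globins fell into separate ranges. Of the summed adjusted counts of the 3 genes, *Hbb* held from 26.5% to 81.5%, with a mean of 47.0% ± 13.6 (SD, n = 80) and a median of 41.4%. These shares are of counts and were not corrected for transcript length. They lay between 26.5% and 46.4% in 46 rats, between 51.0% and 65.0% in 31 rats and between 79.9% and 81.5% in 3 rats. The gap below the top range, 14.9 percentage points, was the widest between neighbouring rats, and that above the lowest range, 4.63 points, came next. The limits of 50% and 70% used to describe the ranges were set after the values were seen, and the gap between 52.1% and 56.1% is nearly as wide as the narrower of them, at 3.99 points.

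The lowest and the middle range were found in both sexes and across batches. The lowest held 8, 15, 11, 1 and 11 rats of batches 2 to 6, and 24 males and 22 females. The middle held 6, 8, 12, 0 and 5 rats of the same batches, and 14 males and 17 females. The 3 rats of the top range were all of batch 4, and they had 3 of the 4 highest *Hbb* values with some of the lowest LOC100134871 values. Male 16 was at 10.87 in *Hbb* and 8.02 in LOC100134871, female 3 at 10.71 and 7.92, and male 31 at 10.51 and 7.84. The lowest LOC100134871 value was that of female 8, at 6.97, so the rat lowest in *Hbb* was lowest there too, but its *Hbb* share was an ordinary 35.1%.

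Within a range, *Hbb* ran nearly in parallel with the other genes. In the 46 rats of the lowest range, r between *Hbb* and the summed unnamed pair was 0.927 and rho 0.921, and in the 31 rats of the middle range r was 0.874 and rho 0.862, against an r of 0.757 over all 80 rats. The ranges were cut on the *Hbb* share, which itself narrows the scatter within each, so these values are a description only. The sum of the 3 beta genes (8.09 to 11.52, median 10.50) did not need this split. Its r with the sum of the unnamed pair was 0.952 over all 80 rats and rho 0.946. Within batches 2, 3, 4 and 6, r was 0.957, 0.981, 0.917 and 0.947, and without the 2 rats farthest from the median of the sum it was 0.930. The log2 difference of these sums had an SD of 0.17 over rats, where the difference of *Hbb* and LOC100134871 had an SD of 0.90. The unnamed pair was chosen for its likeness to *Hbb*, so no test is given for these relations.

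**Figure D2:**
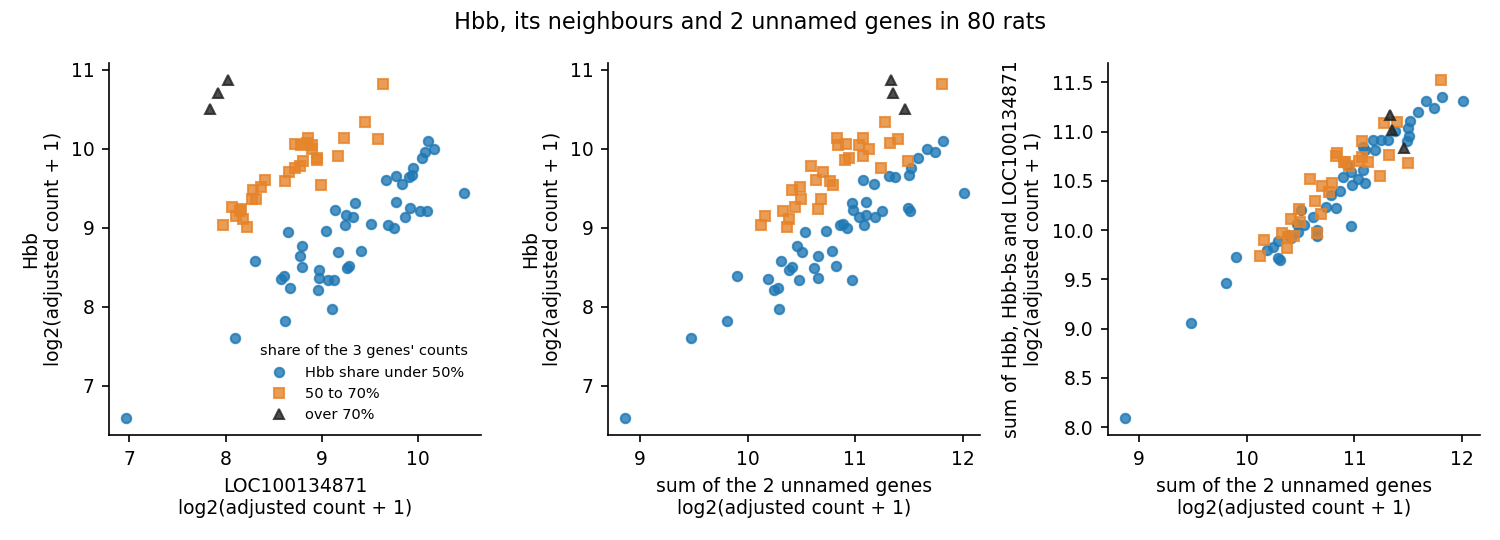
Each point is 1 of 80 rats, in log2(adjusted count + 1) on both axes: *Hbb* against LOC100134871, *Hbb* against the sum of the unnamed genes, and the sum of the 3 beta globin genes against the sum of the unnamed genes. Marker shapes give the *Hbb* share (46, 31 and 3 rats), which forms 3 bands in the panels with *Hbb* and 1 band in the panel with the sum (r = 0.952).

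One gene moved with the difference of *Hbb* and LOC100134871. This difference was examined after the ranges had been seen. It ran from -1.14 to 2.85 with a median of -0.05, and of 17247 genes 0.0058%, which is 1 gene, had an adjusted p under 0.05 from limma, against 692 at an unadjusted p under 0.05. The gene was *Trim6* (ENSRNOG00000017147), which encodes an E3 ubiquitin ligase, with a slope of 1.11 (SE 0.16, adjusted p = 1.66e-05) log2 units for each unit of the difference. In RefSeq it lies on chromosome 1 past *Hbb*, with 37 genes between them. *Trim6* was barely expressed, at 0 in 37 rats and at 31 adjusted counts at most, and its log2 value was 1.29 ± 1.56 with a median of 1.00. Rats with a difference of up to 0.29 had at most 8 *Trim6* counts, and those above reached 31. The 3 rats of the top range had 7, 17 and 29 counts in males 16 and 31 and female 3.

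Within the ranges the relation of *Trim6* was weak, where the cut on the *Hbb* share also narrows the difference itself and so lowers r. The r between the difference and *Trim6* was 0.082 in the 46 rats of the lowest range and 0.206 in the 31 rats of the middle range. *Trim6* remained the 1 gene called without covariates (adjusted p = 2.30e-04), without the 2 and without the 3 rats with the largest difference (adjusted p = 3.23e-04 and 0.00205), after a rank-based transformation (adjusted p = 0.00496) and with CPM scaling (adjusted p = 1.90e-05). With the level of *Hbb* itself as the predictor, its slope was 0.86 (SE 0.22) and did not pass the test (adjusted p = 0.0518).

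**Figure D3:**
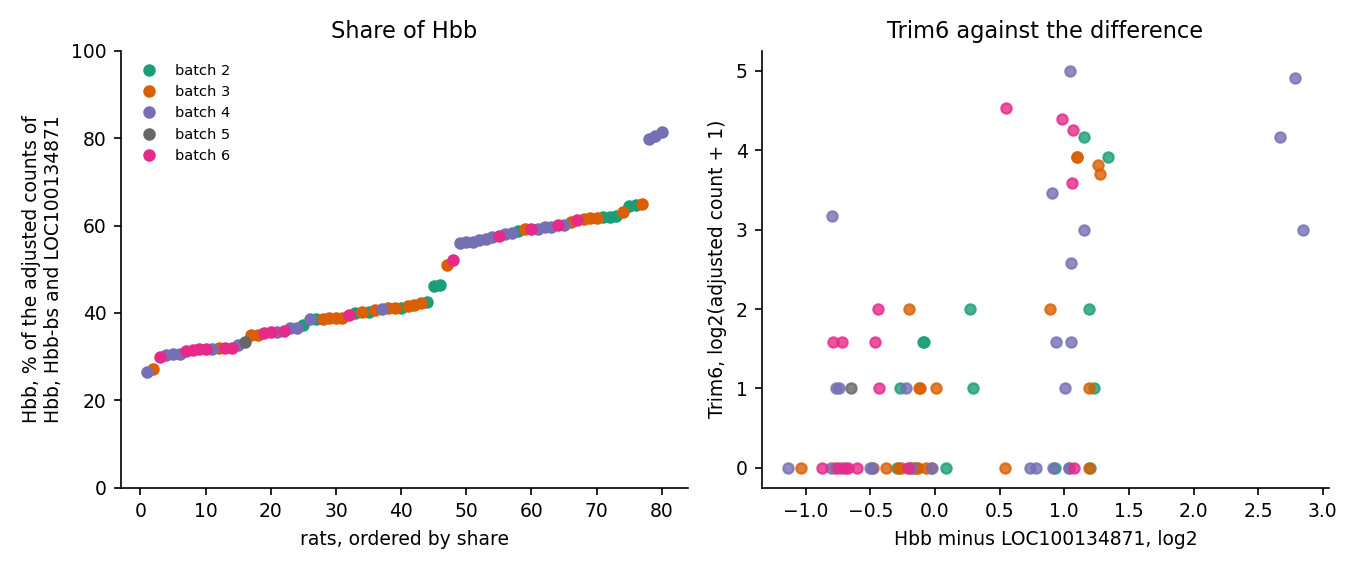
Left, the *Hbb* share of the adjusted counts of the 3 beta globin genes, in percent, for 80 rats in order of the share. Right, *Trim6* as log2(adjusted count + 1) against the log2 difference of *Hbb* and LOC100134871, coloured by rat batch as at left; rats under a difference of 0.29 have at most 8 counts, and the 3 rats of batch 4 at the far right have 7 to 29.

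Few genes passed the test for a rise or fall with *Hbb* across rats. With rat batch and sex in the model, 33 of 17249 genes (0.191%) had an adjusted p under 0.05 from limma, of which 29 rose (0.168%) and 4 fell (0.0232%). The unadjusted p was under 0.05 for 3778 of the 17249, so the number called is not a count of all genes related to *Hbb*. Of the 33, 8 had a name. The unnamed pair above was called together with *Hbb* in each of 20 alternatives, but the other calls lay near the threshold. Without female 8, the rat lowest in *Hbb*, 2 genes were called, while all 33 slopes kept their sign at a median of 93.6% of their size (67.7% to 111%). Without batch 4, which female 8 is not in, 2 genes were called as well, at a median of 98.3% of the slope. The first principal component as a covariate also left 2, and there the slopes were smaller, at a median of 70.6%. *Hbb* correlated with that component after batch and sex (r = 0.346, permutation p = 0.00405, adjusted p = 0.00486, rho = 0.340), and its part in the calls was not tested. The component did not set female 8 apart, which ranked 51 of 80 on it. Over all 80 rats, no relation of *Hbb* to the recovered depth was found (r = 0.050, permutation p = 0.675, adjusted p = 0.714, rho = -0.0087). Within batches 2, 3, 4 and 6 this r was -0.057, -0.146, 0.323 and -0.460.

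The named genes that rose with *Hbb*, besides *Hbb-bs*, moved by small amounts. *Nsmce2*, a SUMO ligase of the SMC5/6 complex, had the highest r of the named genes, 0.472, with values from 6.81 to 7.96 (median 7.41). It rose by 0.14 (SE 0.03, adjusted p = 0.0293) for each log2 unit of *Hbb*. *Ssu72*, a phosphatase of RNA polymerase II, rose by 0.09 (SE 0.02, adjusted p = 0.0293), and *Gsto1*, a glutathione transferase, by 0.08 (SE 0.02, adjusted p = 0.0301). *Mrpl54*, a protein of the mitochondrial ribosome, rose by 0.13 (SE 0.03, adjusted p = 0.0389), *Cstb*, an inhibitor of cathepsins, by 0.12 (SE 0.03, adjusted p = 0.0427), and *Cox7a2l2* by 0.13 (SE 0.03, adjusted p = 0.0443). Without female 8 none of these passed, but their slopes were between 0.08 and 0.15.

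The next named genes in likeness just missed the test, each with an adjusted p of 0.0518. They were the peroxiredoxin *Prdx5* (slope 0.10), *Trim6* (above) and *Fcrl2*, of the Fc receptor-like family (slope 0.49). *Fcrl2* ranged from 1.58 to 8.06, and its r of 0.415 went to 0.042 without the 2 rats farthest from the median of *Hbb*. Over the 10 named genes with the highest r, r ran from 0.415 to 0.472 and 8 had the same sign in all 4 batches. They were picked by r over these same rats, which favours equal signs, so this count is a description only.

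One named gene fell with *Hbb*. *Trerf1*, a transcriptional regulator, had values from 8.75 to 9.75 and a slope of -0.11 (SE 0.03, adjusted p = 0.0443), with an r of -0.437. The other 9 named genes with the lowest r did not pass. They were *Kdm3b*, a histone demethylase, *Adgrl2*, a latrophilin, *Stxbp5* (tomosyn), *Abca1*, a cholesterol exporter, *Myh10*, a non-muscle myosin, *Ccdc180*, *Ankrd28*, *Numa1* and *Zbtb34*. Their adjusted p ranged up to 0.0734. The sign was the same in the 4 batches for 7 of all 10, a count that the choice by r favours as well. Without a name, ENSRNOG00000004926 (slope -0.16, adjusted p = 0.0293) and ENSRNOG00000001120 (slope -0.09, adjusted p = 0.0301) had the lowest r, at -0.476 and -0.460. Names were known only for genes with an eQTL in some brain region, 19.1% of the table, so the named genes are not a sample of all genes.

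**Figure D4:**
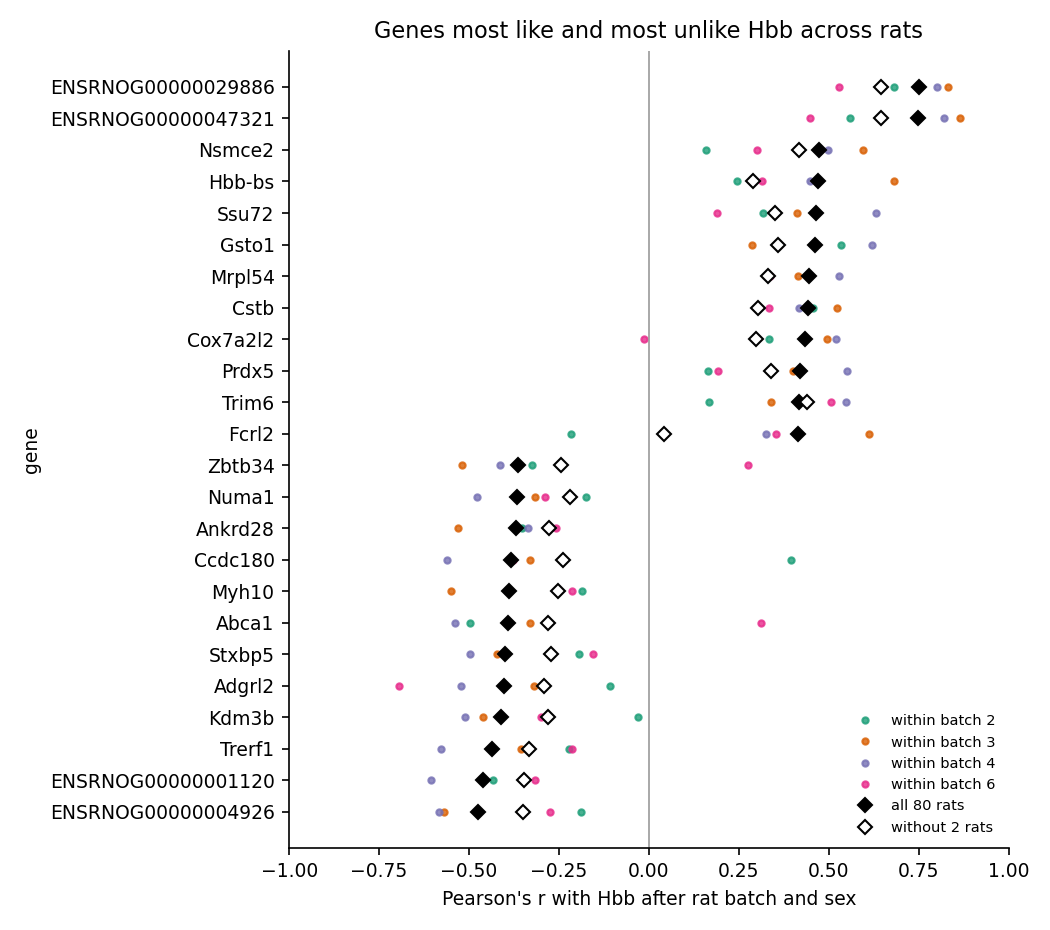
Pearson's r with *Hbb* after rat batch and sex (x axis) for the 10 named genes with the highest and the 10 with the lowest r and, at the top and bottom, unnamed genes (y axis). Filled diamonds are all 80 rats, open diamonds leave out the 2 rats farthest from the median of *Hbb*, and dots are single batches; the unnamed pair at the top, at 0.751 and 0.749, stands apart from the named genes, none of which exceeds 0.472.

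Genes of red cells and haem could be followed only in part. Over the lists for red cells, haem, other blood cells, vessels and brain cell types, 34 genes besides *Hbb* could be found by name. Defining red cell genes such as *Alas2*, *Slc4a1* and the alpha globins were not among them. They may be in the table without a name, so the reading of *Hbb* as blood was not checked against these. Of the red cell list, 5 of 30 genes were found and 0 passed, with 1 at an unadjusted p under 0.05 and a median slope of 0.02, against -0.0004 over all genes tested. *Ahsp*, the chaperone of free alpha globin, was low at 4.18 ± 0.71 (2.32 to 5.17). Its slope was 0.14 (SE 0.10, adjusted p = 0.426), and it was -0.02 without the 2 rats farthest from the median. *Isg20* had a slope of -0.24 (SE 0.12, adjusted p = 0.209), and *Nt5c3a* and *Blvrb* had slopes of 0.02 and 0.01.

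Of haem synthesis, 3 of 9 genes were found and none passed. *Alad*, which joins aminolevulinic acid, had a slope of 0.06 (SE 0.03, adjusted p = 0.208), *Ppox* of 0.03 and *Uros* of -0.0068. Of the genes that scavenge haemoglobin and haem or store iron, 3 of 13 were found. *Hmox1*, the inducible enzyme that breaks down haem, ranged from 5.36 to 7.10 and had a slope of 0.14 (SE 0.05, adjusted p = 0.0999), and *Blvra*, the reductase acting after it, of 0.05 (SE 0.03, adjusted p = 0.339). *Ngb*, the globin of neurons, had a slope of -0.0092 (SE 0.04, adjusted p = 0.924).

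Markers of the other cell types that a cortical sample can hold are given by their values, since with 0.191% of all genes called, no call among so few says little about them. None was called of the 1 white cell gene found (*Lyz2*), 3 endothelial genes (*Vwf*, *Egfl7* and *Emcn*), 3 genes of pericytes and smooth muscle (*Vtn*, *Rgs5* and *Mylk*), 4 of meninges and fibroblasts (*Igfbp2*, *Slc22a6*, *Dcn* and *Ccdc80*) and 4 of microglia (among them *C1qa* and *C1qc*). The lowest adjusted p among them was 0.121, for *Igfbp2* with a slope of 0.13 (SE 0.05). The slopes of the endothelial genes were 0.01 to 0.09, those of microglia 0.03 to 0.08, and those of pericytes and smooth muscle -0.02 to 0.07. The 1 gene each of astrocytes (*Aldh1l1*) and oligodendrocytes (*Mal*), the 3 of neurons (*Vip*, *Slc32a1* and *Neurod6*) and the 1 immediate early gene (*Fosb*) also did not pass. No choroid plexus gene was found.

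The number of genes called depended strongly on which globin measure was used, as the plot of counts by predictor shows. With the sum of the 3 beta genes in place of *Hbb*, 2465 of 17247 genes (14.3%) were called by the same fit, of which 1159 rose (6.72%) and 1306 fell (7.57%), or 561 and 1025 with CPM scaling. They held 32 of the 33 genes called with *Hbb*, and the other, *Hbb-bs*, is part of the sum and was not tested. The sum of the unnamed pair called 2530 genes (14.7%), *Hbb-bs* 493 (2.86%) and LOC100134871 402 (2.33%). Counts at an unadjusted p under 0.05 lay closer together. They were 3778 with *Hbb*, 5181 with the sum, 5233 with the unnamed pair, 3867 with *Hbb-bs* and 3628 with LOC100134871. These predictors share counts or vary together and are not independent. *Hmox1* rose with the sum, with a slope of 0.20 (SE 0.07, adjusted p = 0.0319). So did *Igfbp2*, a secreted binding protein of insulin-like growth factors (0.20, SE 0.07, adjusted p = 0.0310). They were 1 of 3 and 1 of 4 genes found of their lists. With 6.72% of all genes rising, these calls say little about the lists. None passed of the genes of white cells, endothelial cells, pericytes and smooth muscle, microglia, astrocytes, oligodendrocytes and neurons or of the immediate early genes. Of the red cell and haem synthesis lists, 0 genes passed with the sum, with 1 in each at an unadjusted p under 0.05. *Ahsp* was at 0.30 (SE 0.14, adjusted p = 0.125).

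The number called with the sum was as easily lost. It was 27 without the 2 rats farthest from its median, again females 8 and 36, 13 without batch 4 and 91 without batch 3. The slopes of the 2465 genes changed little under these settings, with medians of 96.5%, 93.1% and 101% of their size. With the first principal component as a covariate 6 genes were called, and 909 of the 2465 slopes kept at least 50% of their size, against 2394 or more under the other 3 settings. The sum itself correlated with that component (r = 0.379, permutation p = 0.0025, adjusted p = 0.00321, rho = 0.384).

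**Figure D5:**
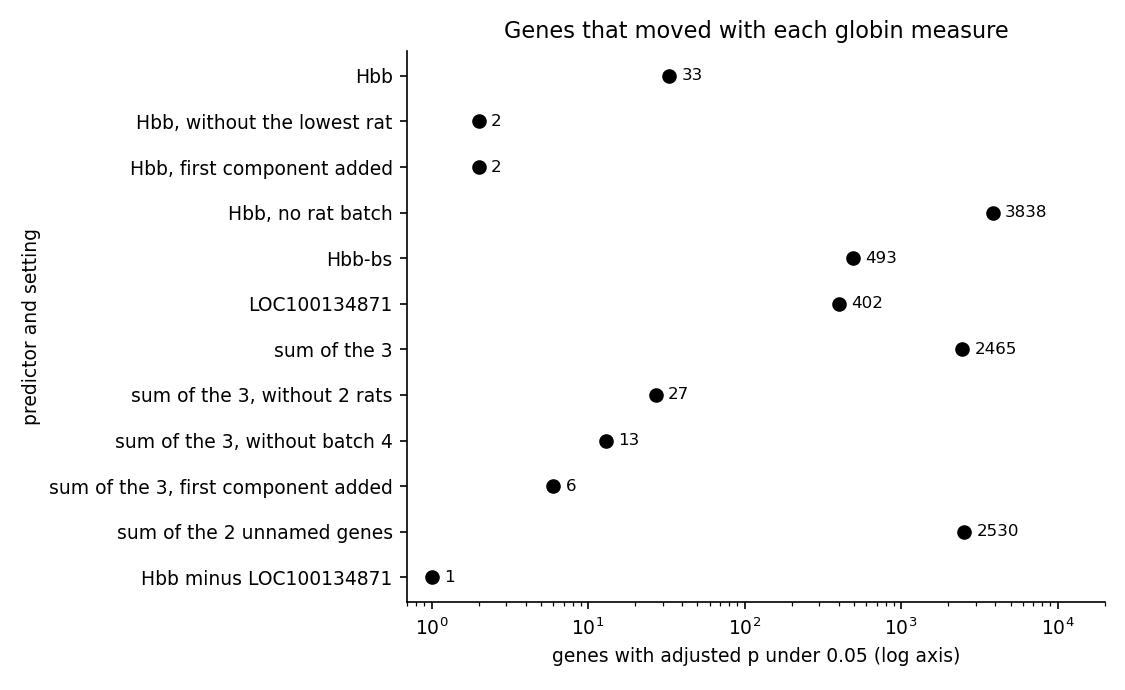
Number of genes with an adjusted p under 0.05 from limma (x axis, log scale) for each predictor and setting (y axis). *Hbb* calls 33 genes and the sum of the 3 beta globin genes 2465, and leaving out 1 or 2 rats brings these to 2 and 27.

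The slopes on *Hbb* were compared between the sexes by an interaction term. Of 17249 genes, 0 had an adjusted p under 0.05 from limma (0.0%), and 642 had an unadjusted p under 0.05. No other tool was run. The interaction also gave 0 calls without the 2 rats farthest from the median and after the rank-based transformation, with 482 and 828 genes at an unadjusted p under 0.05.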

How the data were processed

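RNA-Seq values of the prelimbic cortex (PL) of 80 HS rats were used, and 6 of 86 labelled samples, which the labels give as removed, were not analysed here. The authors trimmed reads with cutadapt, aligned them to the Ensembl rat transcriptome and estimated gene counts with RSEM (build Rnor_6.0 per the labels), applied an upper quartile adjustment in DESeq2, filtered samples and genes, and deposited log2(adjusted count + 1). Versions of these tools are not given in the sources used here. Undoing the logarithm gave whole numbers for 100% of the values, within 0.1%. Because the counts were already adjusted and rounded, no count model was used, and limma 3.58.1 in R 4.3.3 (lmFit, eBayes with trend) was run on the deposited log2 values.

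Each gene was regressed on the log2 value of *Hbb*, with rat batch and sex as covariates. Benjamini-Hochberg adjusted p-values were taken over all genes tested. Correlations used residuals after batch and sex, with 100000 permutations within batches, the smallest p being 1e-05. Library depth was recovered from gaps in the rounded counts, and 56 of 60 simulated libraries came within 1%. The fits were tested on simulated data. Promoter windows were aligned with Biopython 1.88; Python 3.11.15, numpy 2.4.6, pandas 2.3.3, scipy 1.17.1 and matplotlib 3.10.9 did the rest.

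Names were known for 3292 of 17250 identifiers (19.1%), from the pairs of identifier and name that the authors give for genes with an eQTL. Named were the measured members of the globin, red cell and haem lists, the 10 named genes with the highest and the 10 with the lowest r to *Hbb*, called members of other cell type lists and otherwise up to 3 of each by mean level (some printed only within a range), and *Trim6* for the difference. The member, lists and tests were chosen with earlier results of these data known. Each library is 1 rat, so p-values measure the spread between rats. With 10174405 to 32218170 reads a library, genes with few counts such as *Trim6* are measured poorly, and log2 values understate their changes. Genotypes were not used, and 1 listed gene is not reported here.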

Additional observations from a re-analysis of the deposited data

How the results depend on the processing

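The 33 genes called with *Hbb* became 3845 without covariates, 3838 with sex only, 58 among genes with a mean log2 value of at least 5 and 55 among genes above 0 in every library. They became 2 with the first principal component added, after the rank-based transformation, without female 8, without females 8 and 36, without batch 3 and without batch 4. They were 5 with CPM scaling and without batch 6, and 15 without batch 2. The beta sum as predictor, planned with the other alternatives, gave 2465, and predictors chosen after the data were seen gave 493 (*Hbb-bs*), 402 (LOC100134871) and 2530 (the unnamed pair). The 2465 became 6 with the first component, 27 without the 2 farthest rats, 859 after the rank-based transformation, 1586 with CPM scaling, 91 without batch 3 and 13 without batch 4. The remaining alternatives (batch only, recovered depth, pseudocounts of 0.5 and 10, limma without trend or robust, without batch 5) gave 22 to 38 calls with *Hbb*. The causes were not tested.

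The sex difference of -0.01 became 0.0230 without batch 6 and 0.0227 for the beta sum, and passed under no alternative. The largest batch difference of 0.54 passed under none either. The r of *Hbb* and LOC100134871 became -0.0117 without females 8 and 36. Under the same setting, slopes that had not passed changed sign to -0.0107 (LOC100134871), -0.0249 (*Ahsp*), -0.0079 (*Nt5c3a*), -0.0078 (*Blvrb*) and 0.0487 (*Dcn*), as did *Mylk* (-0.0015) and *Ccdc80* (-0.0033) without covariates. Of 57 genes listed by the naming rule, 10 lost the call without females 8 and 36, with slopes at a median of 81.8% of their size (63.4% to 101%), and 15 gained it without covariates.

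The alternative with summed alpha globins was not run, as no alpha globin was found by name. No paired analysis was possible within PL because each rat gave 1 library of this region and the labels carry no replicate number. The other brain regions of the study were not used here. Only 1 rat was in batch 5, and nothing within it was compared.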
